A study of Mus musculus with 12 samples.

Results

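The paraquat response of Atg7-deficient mouse keratinocytes is the difference between 3 cultures given 20 µM paraquat for 48 h and 3 cultures that were sham treated for the same time. These 6 arrays, of 12 in all, were taken by their labels of genotype and agent, and the response was tested over 22180 genes. Both groups, called KO sham and KO paraquat here, came from keratinocytes with Atg7 alleles flanked by recombination sites (Atg7 f/f) and the K14::Cre transgene, in which the promoter of keratin 14, a gene of basal keratinocytes, drives the recombinase. The other 6 arrays, wt sham and wt paraquat, came from Atg7 f/f keratinocytes without Cre, so the floxed alleles were shared by all 4 groups and only the KO groups carried the recombinase. All cells grew in KGM-2 medium, each group held 3 arrays, and the labels call them biological triplicates without tying an array to an animal, so the p-values reflect only how these particular cultures spread.

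ATG7 prepares ATG12 and LC3-like proteins for conjugation, a step that autophagosomes need in order to form, and cells without it cannot degrade damaged proteins and organelles by this route. Paraquat is a herbicide that takes an electron from cellular reductases and passes it to oxygen, which makes superoxide. Oxidative stress of this kind is known to act on NRF2, a transcription factor of antioxidant genes, and on p53, which halts the cell cycle after damage. Keratinocytes leave the cycle as they differentiate and build the cornified envelope, a shell of cross-linked proteins and lipids, and many genes of that envelope lie together in the epidermal differentiation complex.

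The first check was of the targeted gene. Atg7 gave signals of 105, 111 and 103 in the 3 KO sham arrays and 129, 148 and 96 in the KO paraquat arrays, against 293, 356 and 286 in wt sham and 442, 442 and 457 in wt paraquat. All 6 KO arrays were below all 6 wt arrays, by a log2 difference of -1.55 in sham and -1.87 under paraquat (limma, adjusted p = 2.80e-05 and 4.10e-05). Within KO the 2 treatments overlapped in Atg7 signal (log2 0.20 ± 0.13, SE, adjusted p = 0.319). Array medians were 42 to 45 on the deposited linear scale, background was not measured, and genes whose mean signal lies under 45 are called dim here. The keratinocyte genes Krt14, Trp63 and Itga6 were bright in every KO sham array, Krt14 at 10956, 10895 and 11102, and of 13 keratinocyte identity genes 0 rose and 5 fell. In a principal component analysis of the 6 KO arrays the first component held 75.19% of the variance and parted the treatments, with KO paraquat 3 nearest to the sham arrays. Among all 12 arrays wt sham 2 stood apart from its group on the second component, at 31.4 against 11.4 and 20.4.

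Paraquat changed the expression of 6017 of 22180 genes in KO keratinocytes, 27.1% of those tested, with 3217 higher (14.5%) and 2800 lower (12.6%) at an adjusted p under 0.05 in limma. Without wt sham 2 and KO paraquat 3 the KO paraquat response held 5439 calls. At least 2-fold changes that passed the test numbered 522 higher (2.35%) and 424 lower (1.91%). Sham and paraquat arrays of KO did not overlap in many more genes, 4427 higher (20.0%) and 3831 lower (17.3%) under paraquat. A lack of overlap, given for many genes below, is to be read beside these shares. The 15 largest rises and 15 largest falls were taken from called genes whose KO arrays did not overlap between treatments. Their separation therefore adds no support for them. Predicted, clone-named and small RNA genes were left out. Among these rises were the envelope genes Lce3e, Lce3f and Sprr2e and the barrier lipid gene Alox12b. Among these falls were the matrix genes Tgfbi and Fn1 and the cell cycle genes Mki67, Knl1 and Depdc1a. The median log2 change of all genes was 0.0079, the level against which the medians of gene lists are given below. The share of a list that was called is to be read against the 27.1% of all genes. Lists given below without their share exceeded it, unless named as at or under it. Of the 946 genes changed at least 2-fold, the smallest rise or fall came from KO paraquat 3 in 611, from KO paraquat 2 in 209 and from KO paraquat 1 in 126. The median size of those changes was 1.27 on the log2 scale in KO paraquat 3 against 1.38 and 1.44 in KO paraquat 2 and 1, and in none of the 946 genes did an array move the opposite way. These genes were chosen by size and test from the same arrays, which leaves little room for an array of opposite sign.

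**Figure D1:**
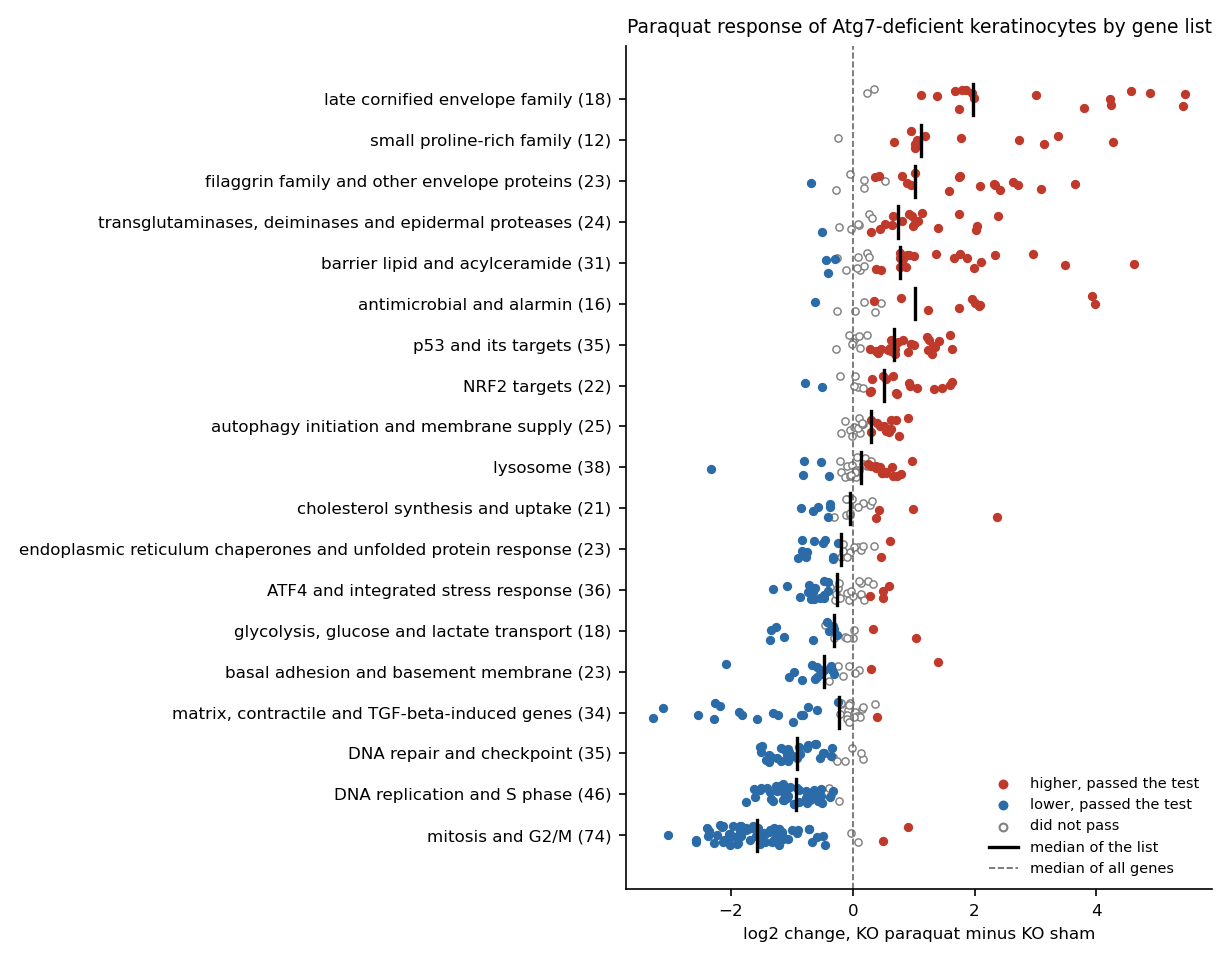
Log2 change of every measured member of 19 gene lists in KO keratinocytes (mean of 3 paraquat arrays minus mean of 3 sham arrays), with the number of measured genes beside each list. Filled points passed the test at an adjusted p under 0.05, black bars are list medians and the dashed line is the median of all 22180 genes. Medians run from 1.97 for the late cornified envelope family to -1.57 for mitosis genes.

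Genes of the cornified envelope rose together in KO keratinocytes. The late cornified envelope (LCE) family, small proteins that are cross-linked into the envelope late in differentiation, had 16 of 18 measured members higher and 0 lower, with a median log2 change of 1.97, and all 16 rose at least 2-fold. The small proline-rich (SPRR) family, cross-linking precursors of the envelope, had 11 of 12 higher and 0 lower, with a median of 1.12. Of 23 filaggrin-family and other envelope proteins 17 were higher and 1 lower (median 1.02). Members of the LCE and SPRR families are alike in sequence, so that a probe set may read more than 1 of them, which was not tested. In these bulk cultures more cells that express a gene and more RNA per cell cannot be told apart.

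Lce3e had the smallest p of the LCE family, with signals of 44, 26 and 17 in KO sham and 1234, 1275 and 1055 in KO paraquat (log2 5.46 ± 0.26, SE, adjusted p = 2.63e-08). Lce3f went from 47, 35 and 43 to 1865, 1924 and 1567 (log2 5.43 ± 0.32, SE, adjusted p = 1.34e-07). Both genes, like Lce1e and Lce1a1, were dim in sham, where background was not measured, so the size of a change from such values is uncertain. In both the paraquat arrays lay far above the sham arrays, and KO paraquat 3 was the lowest of the treated arrays. Lce3d, at 276, 188 and 133 in sham and 5518, 4974 and 3297 under paraquat, rose by log2 4.56 ± 0.24, and Lce1e, at 32, 14 and 22 and 839, 612 and 484, by 4.87 ± 0.28. Lce3a (4.22), Lce3b (4.24) and Lce3c (3.80) also rose. Lce1a1 was dim in both groups, at 7, 8 and 6 and 27, 24 and 22, and still rose without overlap (log2 1.80 ± 0.15). The members that did not pass were Lce1a2 (log2 0.35, adjusted p = 0.311), whose arrays overlapped, and Lce6a (0.23, adjusted p = 0.120), and 5 of the 18 were dim in both KO groups. 

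Sprr2e led the SPRR family, with 251, 163 and 125 in sham and 3647, 3712 and 2689 under paraquat (19.2-fold, log2 4.27 ± 0.20, SE, adjusted p = 2.39e-08). Sprr2f was dim in sham, at 14, 13 and 21, and reached 205, 175 and 117 (log2 3.37 ± 0.24). Sprr1b, already bright in sham at 4341, 3747 and 3138, rose to 6893, 5713 and 5262, a change of log2 0.67 ± 0.15. The family thus ran from large rises of SPRR2 genes, Sprr2g (3.13) and Sprr2d (2.73) among them, to smaller rises of Sprr1a (1.05), Sprr3 (1.02) and Sprr4 (0.96), while Sprr2b, at 1125, 898 and 790 and 821, 862 and 681, did not pass (log2 -0.24, adjusted p = 0.262). 

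Most LCE and SPRR genes hold TATA-like letters in their promoter window, and the sequences are shown because these members moved together. Promoter sequences are from RefSeq (GRCm38.p6), matched by gene identifier, and motifs were searched on both strands from 250 bases before to 50 bases after each annotated start. The letters ATAAAAG, which were picked after reading the LCE promoters, occurred in 12 of 17 LCE genes with a promoter in the table (70.6%), against 5.83% of 16918 tested genes and 5.42% of all 32851 promoters. TATAAA occurred in 9 of 10 SPRR genes (90.0%) against 14.3% of tested genes, and TGAGTCA, the letters bound by AP-1, in 7 of 10 (70.0%) against 5.52%. Promoters of members of a family can be alike, as those of Lce3e and Lce3d printed below are. Matches within a family are therefore not independent of each other. The same AP-1 letters were found in 0 of the 17 LCE promoters, which says only that they are not in these windows. The 250 bases before the start are printed for the members of smallest p that held the motif before the start and had 1 promoter in the table. Capitals mark ATAAAAG, the TATA motif and the AP-1 letters, on either strand. They lie at chr3:92966811-92967060 for Lce3e, chr3:92957140-92957389 for Lce3d and chr3:92351893-92352142 for Sprr2e, all on the plus strand.
Lce3e: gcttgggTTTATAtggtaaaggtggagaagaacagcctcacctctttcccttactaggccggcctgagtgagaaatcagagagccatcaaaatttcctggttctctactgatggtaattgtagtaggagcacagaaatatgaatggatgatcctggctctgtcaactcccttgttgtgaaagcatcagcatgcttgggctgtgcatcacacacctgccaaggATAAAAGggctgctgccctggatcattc
Lce3d: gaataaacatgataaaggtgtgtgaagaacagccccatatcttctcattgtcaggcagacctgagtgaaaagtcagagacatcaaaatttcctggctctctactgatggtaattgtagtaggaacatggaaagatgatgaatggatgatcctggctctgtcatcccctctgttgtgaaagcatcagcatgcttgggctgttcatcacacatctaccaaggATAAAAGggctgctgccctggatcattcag
Sprr2e: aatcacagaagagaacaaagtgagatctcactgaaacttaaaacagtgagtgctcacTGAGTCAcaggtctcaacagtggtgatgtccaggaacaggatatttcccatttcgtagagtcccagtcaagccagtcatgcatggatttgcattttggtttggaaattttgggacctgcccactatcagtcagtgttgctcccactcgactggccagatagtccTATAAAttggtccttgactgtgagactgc
ATAAAAG began 28 bases before the start in Lce3e and 30 before it in Lce3d, and TATAAA began 29 bases before it in Sprr2e. Lce3e held a further TATAAA match on the minus strand, 243 bases before its start, and the AP-1 letters of Sprr2e began 193 bases before the start.

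Most other envelope proteins and most enzymes that assemble the envelope rose as well. Kprp, a keratinocyte proline-rich protein, went from 240, 176 and 197 to 3075, 2949 and 1827 (log2 3.65 ± 0.20, SE, adjusted p = 9.15e-08), and Ivl, the envelope precursor involucrin, from 289, 283 and 219 to 1451, 1466 and 1059 (log2 2.32 ± 0.14). Flg, encoding filaggrin, which bundles keratin filaments, was 77, 93 and 91 in sham and 277, 241 and 259 under paraquat (log2 1.58 ± 0.14). None of these 3 genes overlapped between treatments. Gsdma, a pore-forming gasdermin of the skin, rose by log2 3.08, Calm4 by 2.63, Rptn (repetin) by 2.42 and Hrnr (hornerin) by 1.77, while Flg2, dim in both groups, did not pass (0.19) and Gsdmc fell (-0.68). 

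Of 24 transglutaminases, deiminases and epidermal proteases 17 were higher and 1 lower, with a median of 0.74. Tgm1, which cross-links envelope proteins, had signals of 274, 311 and 245 in sham and 1222, 1247 and 928 under paraquat (log2 2.03 ± 0.13). Prss8, a membrane protease needed for the epidermal barrier, rose from 260, 248 and 262 to 1164, 1155 and 888 (log2 2.05 ± 0.12). Kallikrein proteases, which loosen the outer layer, rose as well: Klk9 by log2 2.38, Klk11 by 1.74, Klk7 by 1.41 and Klk8 by 1.07. The isoenzymes Tgm2 (0.10) and Tgm5 (0.27) did not pass, and the deiminase Padi4 fell (-0.50). 

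Barrier lipid genes had 20 of 31 members higher and 3 lower, with a median of 0.78. Alox12b, a lipoxygenase that oxidises barrier lipids, rose from 109, 107 and 81 to 2712, 2778 and 1852, a 24.5-fold change (log2 4.62 ± 0.21, SE, adjusted p = 2.39e-08). Its partner Aloxe3 rose by log2 2.96 ± 0.14 and Pnpla1, which makes acylceramides, by 3.49 ± 0.22, from 110, 69 and 72 to 1081, 1004 and 715. Ugcg, which makes glucosylceramide, went from 265, 273 and 248 to 1286, 1182 and 945 (log2 2.11 ± 0.12). In each of these genes the treated arrays stood above the sham arrays and KO paraquat 3 was the lowest treated array. The 3 members that fell, named after their values were seen, were Sptlc3 (-0.45), Asah1 (-0.41) and Degs1 (-0.28), and the first and last of these calls were lost without 4 of the 12 arrays.

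The keratins of early differentiation went the other way. Krt1, the main suprabasal keratin, had signals of 313, 401 and 341 in sham and 101, 127 and 114 under paraquat, a 3.08-fold fall (log2 -1.62 ± 0.15, SE, adjusted p = 4.61e-06). Its partner Krt10 fell from 236, 216 and 191 to 108, 120 and 154 (log2 -0.76 ± 0.15), and Krt14 of basal cells from 10956, 10895 and 11102 to 9430, 9732 and 9192 (-0.22 ± 0.067). Krt1 and Krt10 therefore moved against the envelope genes, without overlap between treatments. Krt23 rose from the dim values 20, 25 and 18 to 182, 214 and 187 (log2 3.22 ± 0.14), and Krt78 (1.62), Krt75 (1.44) and Krt80 (1.34) rose, while the wound keratins Krt6a (0.18), Krt6b (0.41) and Krt16 (0.31) moved by small amounts, the first without passing. Wound, companion-layer and simple keratins gave 3 of 10 higher and 2 lower. Over the 13 basal and suprabasal keratins 4 were higher and 3 lower, and 7 of the 13 were dim in both KO groups.

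Transcription factors of differentiation were mostly higher, with 21 of 39 members up, 7 down and a median of 0.34. Grhl3, which drives barrier genes, went from 549, 596 and 550 to 2123, 2113 and 1549 (log2 1.76 ± 0.11), and Prdm1, a factor of terminal differentiation, from 358, 334 and 403 to 1465, 1549 and 1058 (1.88 ± 0.14). Cebpa, a differentiation factor that restrains growth, rose from 161, 166 and 159 to 426, 443 and 430 (log2 1.42 ± 0.084). Dlx3 (1.62), Ppard (1.26), Junb (1.11) and Klf4 (1.09) rose too, and Trp63, the master factor of stratified epithelium, did not pass (log2 -0.11, adjusted p = 0.401). The count of lower members depended on single arrays, with 3 lower without KO paraquat 3 and 4 without KO sham 3. In the Notch pathway, which promotes the switch from basal to suprabasal cells, 2 of 17 rose and 7 fell (52.9% called). Among the falls were the ligands Jag1 (-1.27) and Jag2 (-0.71), the receptor Notch1 (-0.60) and the target Hes1 (-0.95).

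Dhrs9, a retinol dehydrogenase, was dim in sham and rose without overlap. Its signals were 48, 45 and 29 in sham and 2032, 2103 and 1346 under paraquat (log2 5.50 ± 0.22, SE, adjusted p = 2.39e-08). Of 20 genes of retinoid metabolism 6 rose and 1 fell, 35.0% called against 27.1% of all genes. The one that fell was Lrat, which stores retinol as esters, at 175, 174 and 190 and 56, 44 and 54 (log2 -1.81 ± 0.15). Aldh1a3, which makes retinoic acid (1.43), and Cyp26b1, which degrades it (1.35), both rose. Tfcp2l1, a grainyhead-related transcription factor, was dim in sham and rose from 51, 26 and 53 to 541, 527 and 378 (log2 3.53 ± 0.24). 

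**Figure D2:**
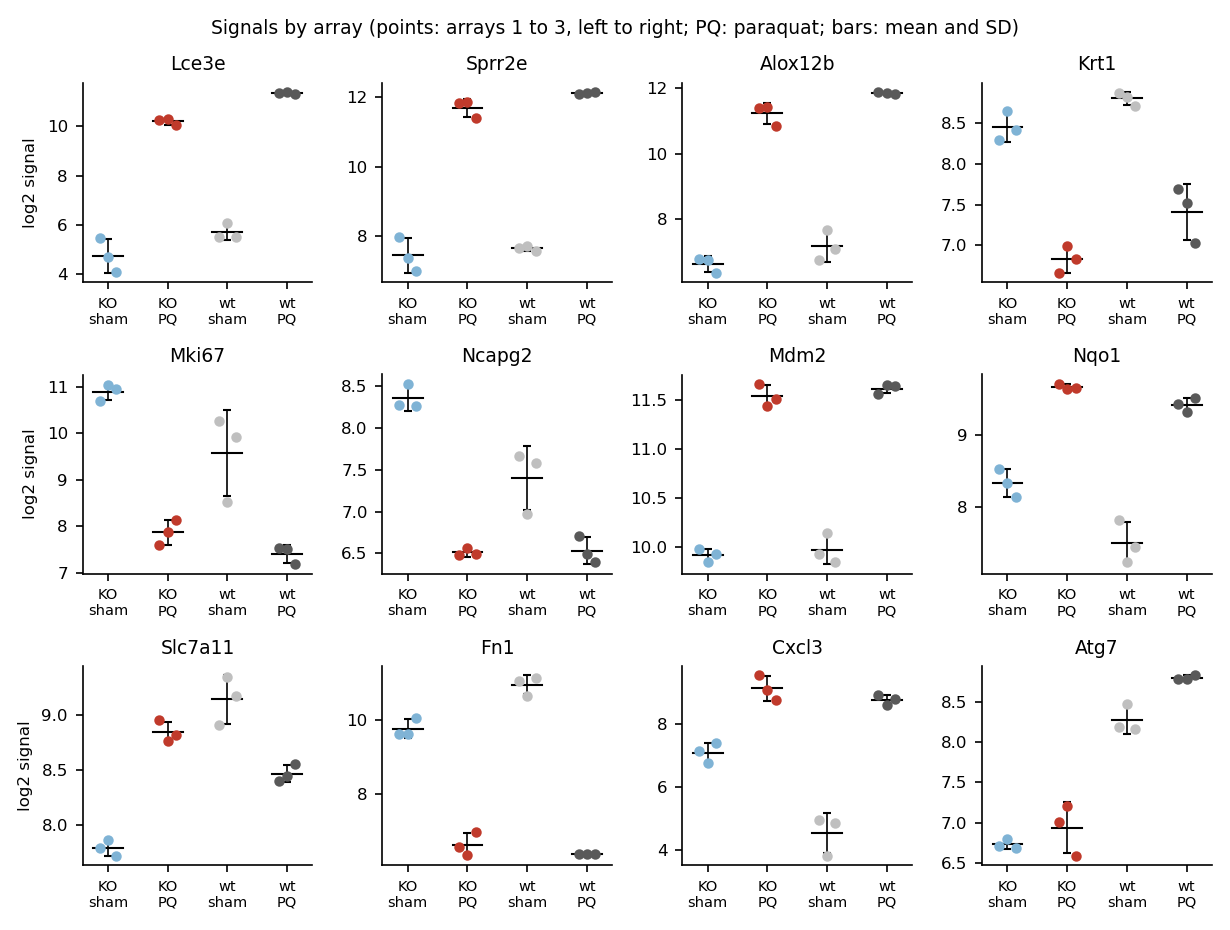
Log2 signal of 12 genes in every array, with KO groups in colour and wt groups in grey, and bars for the mean and SD of 3 arrays; the vertical axes differ and do not start at 0. Lce3e, Sprr2e, Alox12b, Mdm2, Nqo1, Slc7a11 and Cxcl3 lie higher in KO paraquat than in KO sham, Krt1, Mki67, Ncapg2 and Fn1 lie lower, and Atg7 overlaps.

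Genes of cell division fell across the list in KO keratinocytes. Of 74 mitosis and G2/M genes 70 were lower and 2 higher, with a median log2 change of -1.57, and 62 fell at least 2-fold. DNA replication and S phase genes had 43 of 46 lower and 0 higher (median -0.94), and DNA repair and checkpoint genes 29 of 35 lower and 0 higher (median -0.91). The mean log2 signal over the 74 mitosis genes was 8.41 to 8.45 in the KO sham arrays and 6.83 to 7.12 in the KO paraquat arrays, the highest of these in KO paraquat 3. The counts were 69, 43 and 29 without KO paraquat 3.

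Mki67, the proliferation marker Ki-67, had signals of 1671, 2105 and 1980 in sham and 193, 235 and 281 under paraquat, an 8.18-fold fall (log2 -3.03 ± 0.33, SE, adjusted p = 1.38e-05). Ncapg2, a condensin subunit that compacts chromosomes, went from 311, 370 and 307 to 89, 95 and 90 (log2 -1.85 ± 0.16, SE, adjusted p = 2.17e-06), the smallest p in the list. Knl1, a kinetochore scaffold, fell from 324, 434 and 360 to 62, 53 and 73 (log2 -2.57 ± 0.24). No treated array of these genes reached the lowest sham array, which for Mki67 and Knl1 was part of how they were chosen. The kinetochore gene Nuf2 (-2.27), the mitotic kinase Nek2 (-1.37), the cyclins Ccna2 (-2.13) and Ccnb2 (-2.12), the kinesin Kif18a (-1.88) and the checkpoint gene Bub1b (-1.50) fell as well. The 4 members that did not fall, named after their values were seen, were Gtse1, which rose by log2 0.90, Spc25, which rose by 0.50, and Pttg1 (0.090) and Kif18b (-0.030), which did not pass. 

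Among the replication genes Mcm2, a subunit of the replicative helicase, was 352, 350 and 370 in sham and 183, 148 and 174 under paraquat (log2 -1.09 ± 0.093, SE, adjusted p = 2.13e-06). Mcm7 of the same helicase fell from 501, 487 and 508 to 197, 192 and 237 (log2 -1.26 ± 0.11) and Pcna, the polymerase clamp, from 1737, 1705 and 1729 to 921, 869 and 1040 (-0.87 ± 0.085). In each of these 3 genes the treated arrays lay under all sham arrays. Chaf1b, a chromatin assembly factor that acts behind the fork, fell by 2.54-fold, from 302, 240 and 251 to 93, 100 and 119. Among repair genes Brca2, which acts in the repair of double-strand breaks, went from 150, 158 and 134 to 43, 57 and 55 (log2 -1.52 ± 0.17) and the damage kinase Atm from 214, 216 and 208 to 90, 112 and 104 (-1.07 ± 0.092). Fancd2 (-1.50), Brca1 (-1.05) and Clspn, the checkpoint adaptor claspin (-1.38), fell too.

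Most mitosis genes in the promoter table hold the letters of the cell cycle homology region (CHR), and the sequences are shown because these genes fell together. TTTGAA, on either strand, occurred in 41 of 59 mitosis genes (69.5%), against 17.7% of tested genes, and CCAAT in 67.8% against 41.6%. Of 37 replication genes 43.2% held TTCCCGC and 24.3% TTGGCGC, forms of the E2F site, against 6.88% and 3.61% of tested genes. TTGGCGC also occurred in 11.9% of mitosis genes and TTCCCGC in 5.08%. CCAAT occurred in 59.5% of replication genes and TTTGAA in 13.5%. The 250 bases before the start are given for the 2 mitosis genes and the 1 replication gene of smallest p with such a match before the start, in the same RefSeq build. They lie at chr12:116405186-116405435 on the plus strand for Ncapg2, chr6:125191587-125191836 on the minus strand for Ncapd2, another condensin subunit, and chr16:93883651-93883900 on the plus strand for Chaf1b. Capitals mark TTTGAA and CCAAT in the condensin genes, and both E2F forms and CCAAT in Chaf1b, on either strand. E2F letters were left unmarked in the condensin genes, where Ncapg2 holds TTCCCGC on the minus strand and Ncapd2 ends in TTGGCGC.
Ncapg2: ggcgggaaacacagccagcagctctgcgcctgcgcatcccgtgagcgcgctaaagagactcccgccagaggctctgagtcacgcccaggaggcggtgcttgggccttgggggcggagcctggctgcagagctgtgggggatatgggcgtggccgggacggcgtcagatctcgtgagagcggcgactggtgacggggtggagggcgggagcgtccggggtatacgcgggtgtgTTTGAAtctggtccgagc
Ncapd2: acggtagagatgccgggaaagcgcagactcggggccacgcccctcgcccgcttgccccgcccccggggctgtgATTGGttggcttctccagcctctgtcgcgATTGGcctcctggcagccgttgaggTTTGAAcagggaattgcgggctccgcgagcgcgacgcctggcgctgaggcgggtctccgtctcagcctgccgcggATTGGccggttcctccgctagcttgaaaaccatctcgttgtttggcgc
Chaf1b: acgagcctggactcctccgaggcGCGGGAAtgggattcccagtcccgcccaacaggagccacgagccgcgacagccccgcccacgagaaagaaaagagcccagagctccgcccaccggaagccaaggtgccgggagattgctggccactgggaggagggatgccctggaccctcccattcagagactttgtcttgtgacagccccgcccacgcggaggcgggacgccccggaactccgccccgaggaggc
TTTGAA began 18 bases before the start in Ncapg2 and 123 before it in Ncapd2, where 3 CCAAT matches on the minus strand began 177, 148 and 48 bases before it. In Chaf1b the E2F letters, on the minus strand, began 227 bases before the start. Ncapd2, whose promoter is shown for its p in the list, had signals of 307, 354 and 331 in sham and 106, 103 and 128 under paraquat. A match is a description of letters, and binding was not measured.

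Regulators of the G1 phase fell less evenly. Of 17 G1 cyclins, kinases and E2F factors 9 were lower and 0 higher, with a median of -0.27. Ccne1, the cyclin that starts S phase, fell from 270, 234 and 222 to 98, 88 and 99 (log2 -1.35 ± 0.12) and its kinase Cdk2 from 442, 396 and 368 to 159, 166 and 168 (-1.29 ± 0.11). E2f1 (-0.59) and E2f8 (-0.83) fell, while Ccnd1, at 1080, 994 and 1140 and 913, 811 and 1038, overlapped and did not pass (adjusted p = 0.166). 

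Most p53 targets rose. Of 35 measured p53 targets and partners 27 were higher and 0 lower, with a median of 0.69. Cdkn1a, the cell cycle inhibitor p21, had signals of 3972, 3431 and 3206 in sham and 7285, 6839 and 7215 under paraquat (log2 1.01 ± 0.10, SE, adjusted p = 6.22e-06). Mdm2, the ligase that degrades p53, went from 1006, 920 and 968 to 3246, 2777 and 2908 (log2 1.62 ± 0.093). Sesn2, a sestrin that restrains mTORC1, went from 256, 284 and 265 to 668, 664 and 581 (1.25 ± 0.10). In all 3 genes each treated array was above each sham array. Trp53inp1 (1.24), Ak1 (1.34), Dcxr (1.31) and Ddit4l (1.41) rose too, and the partner Mdm4 (0.037) did not pass. Among the apoptosis genes of the list, looked at after their values were seen, Apaf1 (0.82), Tnfrsf10b (0.75), Pidd1 (0.47), Aen (0.38) and Bbc3 (0.28) rose, and Fas (0.24) and Pmaip1 (0.10) did not pass. Trp53 itself was not analysed here.

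Among other CDK inhibitors and senescence markers 4 of 11 rose and 4 fell. Hmga2, a chromatin protein, rose from 103, 100 and 121 to 456, 331 and 400 (log2 1.87 ± 0.14), and Cdkn1c, the inhibitor p57, by 0.92. Lmnb1, lamin B1 of the nuclear envelope, fell from 344, 431 and 376 to 156, 148 and 165 (log2 -1.29 ± 0.15), and Cdkn1b, the inhibitor p27, fell by 1.59-fold. Cdkn2a, at 76, 76 and 81 and 81, 83 and 84, did not pass (log2 0.091). Of 24 BCL2 family members, caspases and inhibitors 3 rose and 4 fell, 29.2% called against 27.1% of all genes, the falls being 2 without KO sham 1, KO sham 2, KO paraquat 1 or KO paraquat 2. Bcl2l1 (0.75), Cflar (0.58) and Mcl1 (0.43) rose, and Bok (-0.48), Casp12 (-0.42), Casp6 (-0.41) and Casp8 (-0.35) fell.

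NRF2 target genes rose in part. Of 22 measured targets 15 were higher and 2 lower, with a median of 0.52. Txnrd1, thioredoxin reductase, went from 644, 661 and 645 in sham to 2224, 1871 and 1967 under paraquat (log2 1.63 ± 0.10, SE, adjusted p = 1.68e-07). Nqo1, a quinone reductase, rose from 369, 321 and 281 to 839, 798 and 804 (log2 1.34 ± 0.13) and Hmox1, heme oxygenase 1, from 974, 703 and 761 to 2751, 2548 and 2033 (1.59 ± 0.17). Treated and sham arrays were apart in each. Of the subunits of the first enzyme of glutathione synthesis, Gclm, the modifier, rose from 268, 266 and 210 to 396, 355 and 469 (log2 0.71 ± 0.13), whereas Gclc, the catalytic subunit, overlapped at 1210, 1234 and 1218 and 1235, 1094 and 1590 (adjusted p = 0.688). Akr1b8 (1.47) and the ferritin heavy chain Fth1 (0.94) rose, and the exporter Abcc1 (-0.79) and Ugdh (-0.51) fell. Nfe2l2, which encodes NRF2, was 1654, 1559 and 1472 and 1748, 1785 and 1758 and did not pass (adjusted p = 0.141). TGACNNNGC, the core of the antioxidant response element, occurred in 7 of 18 NRF2 targets (38.9%) and in 14.9% of tested genes. Other letters were also more frequent there, TTTGAA at 33.3% against 17.7%, TATAAA at 27.8% against 14.3% and TGAGTCA at 16.7% against 5.52%. TTCCCGC was not, at 5.56% against 6.88%.

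Slc7a11, the cystine importer that supplies glutathione synthesis, rose from 222, 233 and 211 to 496, 435 and 451 in KO (log2 1.05 ± 0.11). In wt it fell, from 480, 651 and 579 to 339, 349 and 376 (log2 -0.67), and the difference between the responses was 1.73 ± 0.15, adjusted p = 6.96e-05 in limma. Its KO sham arrays were the lowest of the 4 groups.

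Enzymes that remove superoxide and peroxide were mixed, with 8 of 24 higher and 4 lower, and 4 higher without KO sham 2 or 5 without KO paraquat 3. The superoxide dismutases Sod1 (-0.21), Sod2 (0.11) and Sod3 (-0.012) and catalase (0.24) did not pass, with Sod2 at 1175, 1063 and 955 in sham and 1106, 1049 and 1289 under paraquat. Gpx3, a secreted glutathione peroxidase that was dim in sham, rose from 43, 29 and 33 to 77, 82 and 110 (log2 1.36 ± 0.16), Glrx, a glutaredoxin, rose by 1.21, and Msrb3, which repairs oxidised methionine, fell by 2.48-fold. Gsta4, a transferase that conjugates products of lipid peroxidation, went from 898, 791 and 677 to 4337, 3947 and 3739 (log2 2.35 ± 0.11, SE, adjusted p = 2.39e-08), while 5 of 19 glutathione S-transferases rose in all and 3 fell, Mgst3 (-0.77) and Mgst1 (-0.63) among them. Reductases and oxidases that can feed electrons to paraquat or make superoxide had 1 of 17 higher and 4 lower (2 lower without KO sham 1, KO sham 3 or KO paraquat 1), 29.4% called against 27.1% of all genes, with no change of 2-fold, and Por was not analysed here.

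Many basal adhesion and matrix genes fell. Of 23 genes of basal adhesion and the basement membrane 15 fell and 2 rose (median -0.47), and of 34 matrix, contractile and TGF-beta-induced genes 17 fell and 1 rose (median -0.23). Fn1, encoding fibronectin, went from 782, 783 and 1062 to 97, 83 and 126, an 8.62-fold fall (log2 -3.11 ± 0.17, SE, adjusted p = 6.63e-08). Acta2, smooth muscle actin, fell from 7137, 6287 and 5948 to 1026, 1160 and 1151 (log2 -2.54 ± 0.11) and Tgfbi, a TGF-beta-induced matrix protein, from 1481, 1587 and 1630 to 135, 169 and 182 (-3.28 ± 0.27). The treated arrays of these genes lay far under the sham arrays. Col7a1, collagen of the anchoring fibrils, fell from 308, 333 and 400 to 78, 81 and 87 (log2 -2.07 ± 0.16), Lamb3, a laminin chain, by 2.07-fold, and Tnc (-2.18), Col12a1 (-2.26) and Postn (-2.28) fell. Itga6 (0.11) did not pass, and Nid1, a basement membrane linker, rose by log2 1.40. 

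Fibroblast markers were measured beside these falls. Of 16 such markers 1 rose (Pdgfra, 0.91) and 2 fell (Fbln2, -1.13, and Fbln1, -0.62), 18.8% called against 27.1% of all genes. Of the 16 markers 8 were dim in both KO groups. The mean log2 signal over the 16 was 5.36 to 5.48 in KO sham and 5.36 to 5.41 in KO paraquat. The defining genes Dcn, at 15, 20 and 18 and 16, 19 and 18, and Lum, at 9, 8 and 10 and 9, 10 and 9, stayed under the array median in every KO array. Smad7, an inhibitor of TGF-beta signalling, rose from 74, 80 and 78 to 223, 239 and 169 (log2 1.43 ± 0.14), and the receptor Tgfbr1 changed by -0.79. Of 20 TGF-beta ligands, receptors and SMADs 2 rose and 5 fell, 3 of them without KO paraquat 1 or 3. The share called was 35.0% against 27.1% of all genes.

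Proteases of the matrix rose in part, with 6 of 19 higher and 2 lower (42.1% called against 27.1% of all genes). Mmp13, a collagenase, went from 107, 119 and 94 to 414, 301 and 235 (log2 1.54 ± 0.20, SE, adjusted p = 7.34e-05), and the sham and treated arrays did not overlap although KO paraquat 1 was the highest. In wt Mmp13 was 238, 409 and 278 in sham and 260, 244 and 253 under paraquat, and the difference between the responses was 1.79 ± 0.29, adjusted p = 0.00632. Mmp10 rose by log2 1.17, Timp3, a metalloproteinase inhibitor, fell from 1591, 1610 and 1939 to 427, 417 and 593 (-1.85 ± 0.13), and Plau, urokinase, fell (-0.90). 

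Ligands of the EGF receptor rose, with exceptions elsewhere in their list. Hbegf, a ligand of the EGF receptor, went from 603, 575 and 567 to 2322, 2272 and 1728 (log2 1.84 ± 0.11, SE, adjusted p = 1.37e-07), and Ereg, another ligand, from 222, 201 and 155 to 1099, 901 and 821 (log2 2.29 ± 0.15). Dusp5, a phosphatase that ends ERK signalling, rose from 350, 336 and 368 to 1623, 1565 and 1300 (2.08 ± 0.14). These 3 genes were apart between treatments, and 9 of the 18 genes in the list rose and 2 fell. Tgfa (1.22) and Errfi1 (1.06) rose, Erbb2, a receptor of the family, fell (-0.76), and Egfr itself did not pass (-0.17). Igfbp2, which binds insulin-like growth factors, fell from 1336, 1234 and 1308 to 318, 308 and 260 (log2 -2.13 ± 0.11), and Igf1r (-0.43) and Insr (-0.65) fell. The immediate early gene Fosb fell by 5.29-fold, from 483, 441 and 424 to 95, 87 and 74, and Pdgfb, a growth factor chain, by 5.25-fold. 

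Genes of the skin's innate defence rose, and cytokines split. Of 16 antimicrobial and alarmin genes 10 were higher and 1 lower (median 1.02). S100a7a, a relative of psoriasin, went from 185, 141 and 179 to 3215, 2727 and 2085 (log2 3.98 ± 0.18, SE, adjusted p = 2.39e-08), and Defb3, a beta-defensin that was dim in sham, from 45, 29 and 39 to 619, 627 and 464 (log2 3.93 ± 0.24). S100a9, a subunit of the alarmin calprotectin, rose from 924, 1045 and 617 to 3657, 3761 and 3340 (2.09 ± 0.16). Treated arrays were higher without overlap in each, and Ltf (2.00), Defb14 (2.08) and S100a8 (1.75) followed. Defb1 fell (-0.61), and Lcn2 (0.46) and Camp (-0.26) did not pass. 

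Chemokines that attract neutrophils rose while others fell, 5 of 17 up and 4 down (2 down without KO sham 1 or KO paraquat 1). That was 52.9% called against 27.1% of all genes. Cxcl5 went from 116, 99 and 118 to 575, 433 and 475 (log2 2.15 ± 0.14, SE, adjusted p = 1.99e-07) and Ppbp from the dim values 25, 22 and 26 to 180, 114 and 108 (log2 2.43 ± 0.16). Cxcl2 (1.37), Cxcl3 (2.05) and Cxcl1 (0.85) rose. Cxcl12, a chemokine of the CXCR4 receptor, fell from 180, 142 and 161 to 58, 59 and 62 (log2 -1.43 ± 0.13), and Ccl2, which attracts monocytes, fell (-1.39). Within the interleukin-1 and interleukin-36 family, 5 of 13 rose and 3 fell (61.5% called). Il1f8, an interleukin-36 that was dim in sham, went from 33, 35 and 29 to 358, 292 and 198 (3.09 ± 0.17), Il1f6 (2.06), Il1f9 (2.06) and Il1a (1.44) rose, the alarmin Il33 fell by 2.72-fold, and Il1b did not pass (0.10). 

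Tslp, a cytokine that epithelium releases towards dendritic cells, fell from 515, 372 and 316 to 93, 90 and 103 (log2 -2.04 ± 0.21, SE, adjusted p = 8.38e-06), with each treated array under each sham array. Il24, of the interleukin-10 family, rose from 1256, 959 and 1027 to 2853, 2965 and 2358 (log2 1.34 ± 0.12), Csf1 (-1.48) and Tnf (-1.35) fell, and Il6 (0.0060) did not pass. In the NF-kB list 8 of 18 rose and 2 fell, but the feedback genes Nfkbia (-0.13) and Tnfaip3 (-0.16) did not pass. Tlr2, a receptor for bacterial lipoproteins, fell from 203, 179 and 235 to 57, 54 and 70 (log2 -1.77 ± 0.14), and Cd14, a co-receptor for lipopolysaccharide, rose from 60, 50 and 60 to 276, 203 and 222 (2.04 ± 0.13). Type I interferon genes had 1 of 21 higher and 2 lower, 14.3% called against 27.1% of all genes, with 14 dim in both groups.

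Markers of other cell types gave the following values beside these results. Of 16 leukocyte and Langerhans markers 4 rose and 1 fell, 31.2% called against 27.1% of all genes. Cd14 and Cd68 (1.05) were among the rises, and Ptprc, the defining leukocyte gene, was 15, 13 and 17 in sham and 16, 18 and 17 under paraquat. Cd207, which defines Langerhans cells, was 50, 51 and 63 and 51, 52 and 52, without passing. Among 12 endothelial markers 3 rose and 1 fell (33.3% called), with Kdr at 1.38, and Cdh5, the defining gene, did not pass (31, 32 and 28 and 29, 32 and 31). Of 11 melanocyte markers 4 rose (36.4% called), 2 without KO sham 2. Mlana went from 77, 70 and 62 to 341, 340 and 392 (log2 2.36 ± 0.12, SE, adjusted p = 4.78e-08) and Tyrp1 changed by 0.96, while Tyr, Pmel and Sox10 did not pass, with Tyr at 11, 8 and 9 and 8, 9 and 8. The mean log2 signal over the melanocyte markers was 5.22 to 5.35 in KO sham and 5.66 to 5.73 in KO paraquat, over the leukocyte markers 5.13 to 5.15 and 5.40 to 5.41, and over the endothelial markers 5.26 to 5.28 and 5.46 to 5.58. Of hair follicle, sebaceous and Merkel markers 1 of 18 rose (5.56% called). The part of other cell types in the changes above was not tested.

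Many autophagy genes other than the deleted one rose by small amounts. Of 25 genes of autophagy initiation and membrane supply 14 were higher and 0 lower, with a median of 0.30 and no change of 2-fold. Ulk1, the kinase that starts autophagy, went from 424, 444 and 437 to 694, 644 and 642 (log2 0.60 ± 0.071, SE, adjusted p = 2.87e-05) and Atg2a, which feeds lipid to the growing membrane, from 157, 172 and 174 to 325, 341 and 282 (log2 0.91 ± 0.090). The arrays of both were apart between treatments. Of 16 genes of ATG12 and LC3 conjugation 6 rose and 2 fell. Gabarap, an LC3 relative, went from 2949, 2542 and 2766 to 4406, 4479 and 4411 (0.69 ± 0.085), Atg12 (0.87), Map1lc3a (0.87) and Gabarapl2 (0.72) rose, and Map1lc3b fell from 1421, 1166 and 1159 to 689, 809 and 830 (-0.68 ± 0.11). The products of these genes need ATG7 for their conjugation, and protein was not measured.

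Sqstm1, the receptor p62 that carries cargo into autophagosomes and is an NRF2 target, was 1059, 847 and 990 in KO sham and 1370, 1292 and 1120 in KO paraquat, which did not overlap but missed the threshold (log2 0.39 ± 0.14, adjusted p = 0.0583). In wt it fell, from 1818, 2751 and 2006 to 1369, 1267 and 1339 (log2 -0.70), and the difference between the responses was 1.09 ± 0.20, adjusted p = 0.0134. Lysosome genes had 14 of 38 higher and 5 lower (median 0.14, 50.0% called). Atp6v0a1, a proton pump subunit, rose from 388, 437 and 432 to 874, 868 and 741 (log2 0.98 ± 0.11), and Ctsc, the protease cathepsin C, fell from 1117, 1232 and 956 to 253, 225 and 181 (log2 -2.33 ± 0.13, SE, adjusted p = 7.61e-08). Lamp1 (0.11), Lamp2 (-0.088) and Ctsb (-0.19) did not pass. Selective autophagy receptors had 4 of 16 higher and 3 lower, 43.8% called. Proteasome genes had 3 of 38 higher and 3 lower, 15.8% called against 27.1% of all genes.

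Part of the protein folding and amino acid genes fell. Of 23 genes of endoplasmic reticulum chaperones and the unfolded protein response 11 fell and 2 rose (median -0.19), for example Pdia6, a disulfide isomerase, from 2111, 2046 and 2158 to 1123, 1180 and 1262 (log2 -0.83 ± 0.075, SE, adjusted p = 3.76e-06), and Hspa5, the chaperone BiP, by a log2 of -0.32. Cytosolic heat shock genes gave 1 of 15 higher, Cryab (1.21), and 2 lower, 20.0% called against 27.1% of all genes. Among 36 genes of ATF4 and the integrated stress response, which adjusts amino acid supply to stress, 4 rose and 15 fell (median -0.25). Atf3, a stress-induced factor, fell from 1424, 1169 and 1268 to 611, 487 and 465 (log2 -1.31 ± 0.13), and Aldh18a1, of proline synthesis, from 350, 355 and 327 to 195, 177 and 192 (-0.87 ± 0.086). Atf4 rose slightly, from 2316, 2370 and 2365 to 2838, 2721 and 3004 (0.28 ± 0.076), Atf5 by 0.49, and Ddit3 did not pass (0.25). 

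Sugar and lipid genes changed with exceptions in each list. Of 18 glycolysis and transport genes 10 fell and 2 rose (median -0.31). Slc2a1, the glucose transporter GLUT1, went from 5908, 6214 and 6098 to 2287, 2364 and 2531 (log2 -1.34 ± 0.078, SE, adjusted p = 1.28e-07), and Slc16a1, which moves lactate, from 909, 1011 and 1032 to 417, 328 and 409 (log2 -1.36 ± 0.10). Ldhb (1.04) and Hk2 (0.34) rose and Gapdh did not pass. Of 21 cholesterol genes 4 rose and 6 fell, with a median of -0.051, although their mean log2 signal was slightly higher under paraquat (9.73 against 9.68). Abcg1, which exports sterols, went from 74, 72 and 68 to 366, 438 and 316 (2.38 ± 0.12), Dhcr7, the last enzyme of the pathway, rose by 0.98, and Nsdhl (-0.85) and Fdps (-0.64) fell. Among 23 fatty acid and phospholipid genes 11 fell, Scd1 (-0.84) and Elovl5 (-0.81) among them, and 5 rose, with Lpin2, a phosphatidate phosphatase, going from 134, 133 and 143 to 611, 568 and 406 (1.93 ± 0.15). Eicosanoid and phospholipase genes gave 10 of 26 higher and 1 lower, with Pla2g4d (2.99), Pla2g4e (2.80) and the prostaglandin E synthase Ptges (1.70).

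Lists at or under the background share included the respiratory chain (6 of 40 higher, 1 lower), ribosomal proteins (0 of 21 higher, 2 lower), and the aryl hydrocarbon receptor and its targets (2 of 8 higher, 0 lower), in which Cyp1a1 did not pass (0.24). The lists that follow lay above the 27.1% of all genes. In the circadian list 5 of 16 rose and 4 fell (56.2% called). Bhlhe40, a repressor of the clock, fell from 3045, 2762 and 2684 to 845, 1071 and 1058 (log2 -1.52 ± 0.11, SE, adjusted p = 7.74e-07). Of 16 iron and metal genes 3 rose and 6 fell (56.2% called), 3 of the falls remaining without KO paraquat 2. Slc39a14, a metal importer, rose by log2 1.05. Gap and tight junction genes had 4 of 18 higher and 4 lower (44.4% called). The lower ones were 2 without KO sham 1, KO paraquat 1 or KO paraquat 2. Desmosome genes split 3 to 3 among 13 (46.2% called), with the desmocollin Dsc2 up (1.20) and the desmoglein Dsg2 down (-1.38). Hypoxia-inducible genes had 4 of 14 higher and 7 lower (78.6% called). Further large falls were in Depp1, a FOXO-regulated gene, from 656, 361 and 428 to 52, 43 and 43 (log2 -3.35 ± 0.21), the kinase gene Nuak1 (-2.70), Pi15 (-2.58), Dipk1a (-2.60), Phxr4 (-2.84) and Skint1 (-2.55), whose fall differed from wt by -1.21 (adjusted p = 0.0302, lost without 10 of the 12 arrays). 

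Of 240 genes of the text that were called in KO, 222 kept the call whichever of the 12 arrays was left out. Many of these genes were chosen for a large change or a small p in the same arrays. The count therefore does not measure the stability of the response as a whole. Casp6 lost it without 10 arrays, Hk2 and Abcc4 without 9, Hspa5, Krt14, Postn, Aen, Casp8, Degs1 and Sptlc3 without 4, Tfrc, Padi4 and Stfa1 without 3, Atf5 and Ugdh without KO sham 2 or KO paraquat 1, Bbc3 without KO sham 3 or KO paraquat 2, Atf4 without KO paraquat 3 and Mgst1 without KO sham 2.

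**Figure D3:**
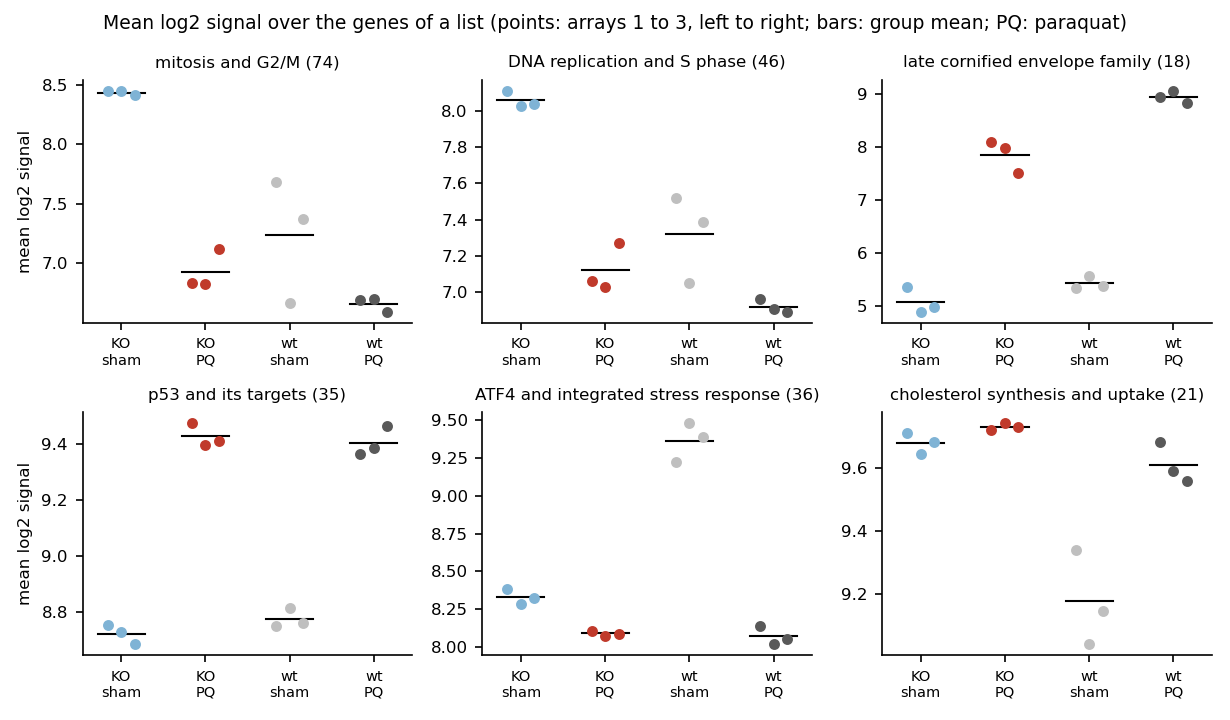
Mean log2 signal over the measured genes of 6 lists in each array, with bars for the group means of 3 arrays; the vertical axes differ and do not start at 0. Mitosis genes lie at 8.43 in KO sham and 6.93 in KO paraquat, late cornified envelope genes at 5.09 and 7.85, and ATF4 genes at 8.33 and 8.09, against 9.37 in wt sham.

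The KO response was then compared with that of wt cultures under the same dose and time, which do not share samples with it. Paraquat changed 6480 genes in wt (29.2%), and 4280 genes passed in both genotypes in the same direction, 71.1% of the KO calls and 66.0% of the wt calls. In 41 genes the directions were opposite. The difference between the responses (KO change minus wt change) itself passed in 508 genes, 2.29% of those tested, with 309 positive (1.39%) and 199 negative (0.897%). That count was 250 without wt paraquat 1 and 700 without wt sham 1, the lowest and highest when 1 array was left out. Of the 1696 genes called in KO and not in wt, 69 had a difference that passed, so for the other genes the responses were not shown to differ. Among the 309 positive differences KO sham was below wt sham in 295, and among the 199 negative ones KO sham was above wt sham in 142. Over all genes KO was called above wt in 1016 (4.58%) and below it in 1257 (5.67%) in sham, and above it in 22 (0.0992%) and below it in 100 (0.451%) under paraquat.

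**Figure D4:**
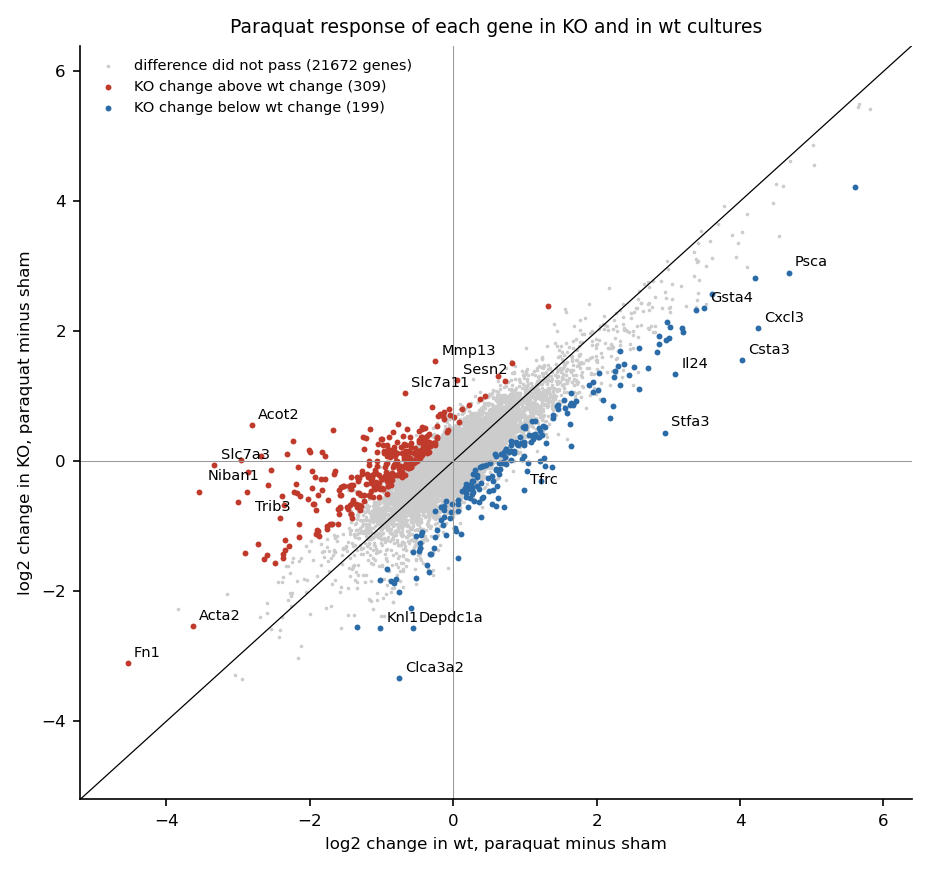
Log2 change of each of 22180 genes under paraquat in wt (horizontal) and in KO cultures (vertical), each the mean of 3 paraquat arrays minus the mean of 3 sham arrays, with the line of equal change. The 508 coloured genes passed the test of the difference, 309 above the line and 199 below it.

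The change of some cell cycle genes was lower in KO than in wt. In the mitosis list the difference was negative and passed in 14 of 74 genes, with 0 positive (18.9% against 2.29% of all genes), and the list's median difference was -0.97 against 0.00066 over all genes. The median change was -1.57 in KO and -0.61 in wt, where 41 fell and 4 rose. Its mean log2 signal was 8.43 ± 0.021 (SD) in KO sham, 7.24 ± 0.52 in wt sham, 6.93 ± 0.17 in KO paraquat and 6.66 ± 0.059 in wt paraquat, and 68 of 74 genes were called higher in KO sham than in wt sham. Wt sham 2 was the lowest wt sham array, at 6.66. The count of negative differences was 44 without wt sham 1, 19 without wt sham 2, 22 without wt sham 2 and KO paraquat 3, and 1 to 5 without any 1 of the other 10 arrays. Bub1b signals were 130, 50 and 99 in wt sham and 89, 97 and 85 in wt paraquat (log2 0.063) against 273, 262 and 248 and 83, 89 and 107 in KO (-1.50), with a difference of -1.56 ± 0.35, adjusted p = 0.0368. Depdc1a, of the mitotic genes, changed by log2 -2.56 in KO and by -0.56 in wt, a difference of -2.00 ± 0.41, adjusted p = 0.0246. Knl1 (-1.56), Kif18a (-1.05), Ncapg2 (-0.97) and, among replication genes, Mcm7 (-0.80) also differed, and of these 6 genes, Bub1b and Depdc1a included, Mcm7 kept the call without any 1 array, while the others lost it without 8 to 10 of the 12 arrays. The 14 included 2 genes that did not fall in KO. Gtse1, a microtubule-associated gene, rose from 376, 362 and 369 to 721, 631 and 723 in KO and from 245, 254 and 201 to 694, 750 and 741 in wt (difference -0.75 ± 0.14, adjusted p = 0.0140), a call kept without any 1 array. Kif18b changed by -0.030 in KO, without passing, and rose by 1.04 in wt (difference -1.07), a call lost without 7 arrays. 

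Late cornified envelope genes changed less in KO than in wt in 5 of 18 members (27.8% against 2.29% of all genes), with 0 the other way and a median difference of -0.66. Lce3a reached 949, 947 and 523 in KO paraquat against 1724, 1586 and 1475 in wt paraquat, a difference of -1.38 ± 0.33, adjusted p = 0.0498, and Lce1a1 reached 27, 24 and 22 against 47, 68 and 62 (-1.07 ± 0.21, adjusted p = 0.0204). Under paraquat 6 of the 18 were called lower in KO than in wt and 0 higher. In Lce3e (difference -0.18, adjusted p = 0.868) and Sprr2e (-0.23, adjusted p = 0.764) the test did not pass, and in the SPRR family 0 of 12 differences passed. Lce3a lost the call without 11 of the 12 arrays and Lce1a1 without 6. Lce6a, dim in KO at 21, 20 and 21 in sham and 26, 24 and 23 under paraquat, did not pass there, went from 15, 16 and 16 to 52, 55 and 41 in wt, and its difference (-1.41 ± 0.15, adjusted p = 0.000344) kept the call without any 1 array. Lce1k (-1.48), which kept the call without any 1 array, and Lce1f (-1.10), which lost it without 6, were the others. The LCE count was 3 without KO paraquat 3 and 2 to 4 without any other array.

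Several defence and protease inhibitor genes rose less in KO than in wt. Cxcl3 was 141, 109 and 169 in KO sham and 762, 551 and 441 in KO paraquat, against 31, 14 and 29 and 490, 392 and 447 in wt, with changes of log2 2.05 and 4.25 and a difference of -2.19 ± 0.39, adjusted p = 0.0114. Il24 was 295, 264 and 278 in wt sham and 2545, 2221 and 2376 in wt paraquat, a change of 3.09 against 1.34 in KO (difference -1.76 ± 0.16, adjusted p = 0.000122). The treated arrays of the genotypes overlapped in both genes, while every KO sham array was above every wt sham array. Csta3, a stefin inhibitor of cysteine proteases, went from 263, 310 and 148 to 835, 780 and 472 in KO and from 35, 22 and 38 to 478, 495 and 540 in wt (difference -2.47 ± 0.39, adjusted p = 0.00576), and Stfa3 (-2.51), Stfa1 (-1.53), the surface antigen gene Psca (-1.78) and the transferase gene Gsta4 (-1.15) differed in the same direction. Cxcl3 and Csta3 were dim in wt sham, so the size of their differences is uncertain. Stefin genes are near-identical copies, and a probe set may read several, which was not tested. The difference of Stfa1 was lost without 7 of the 12 arrays.

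Genes of the ATF4 list fell less in KO than in wt. The difference was positive and passed in 23 of 36 (63.9% called against 2.29% of all genes), with 0 negative (1 without wt sham 1). The median difference was 0.81, and 19 to 26 were positive when any 1 array was left out. The median change was -0.25 in KO and -1.16 in wt, where 31 fell. The mean log2 signal of the list was 9.37 ± 0.13 (SD) in wt sham against 8.33 ± 0.052 in KO sham, 8.09 ± 0.017 in KO paraquat and 8.07 ± 0.063 in wt paraquat. In sham 30 of the 36 were called lower in KO than in wt, and under paraquat 0 were called in either direction. Slc7a3, a transporter of cationic amino acids, was dim in KO at 39, 34 and 38 in sham and 34, 35 and 37 under paraquat, and fell from 273, 523 and 391 to 39, 35 and 40 in wt (difference 3.27 ± 0.24, adjusted p = 2.36e-05). Trib3, a pseudokinase induced by this pathway, was 129, 130 and 130 and 85, 101 and 94 in KO and 536, 624 and 655 and 84, 76 and 86 in wt (2.40 ± 0.13, adjusted p = 1.85e-06), and Niban1 (3.07), Atf5 (1.65), Aldh18a1 (1.55), Shmt2 (0.76) and Psat1 (0.85) differed likewise. Of 16 tRNA synthetases and export genes 10 had a positive difference that passed (62.5% called), Eprs (0.65) among them. Outside the list Acot2, a mitochondrial thioesterase, had the largest positive difference among the genes named by size, 3.37 ± 0.31, adjusted p = 0.000106, with 345, 304 and 287 and 429, 482 and 461 in KO and 1891, 4427 and 3075 and 442, 384 and 438 in wt. 

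Sesn2, which rose in KO as described, was 536, 663 and 677 in wt sham and 635, 647 and 655 in wt paraquat (difference 1.19 ± 0.14, adjusted p = 0.000745). Fn1 and Acta2 fell less in KO than in wt, with differences of 1.43 (adjusted p = 0.00691) and 1.10 (adjusted p = 0.00286). Tfrc, the transferrin receptor, fell in KO from 917, 978 and 980 to 721, 730 and 659 (log2 -0.45) and rose in wt from 393, 254 and 316 to 610, 678 and 592 (0.99), with a difference of -1.43 ± 0.18, adjusted p = 0.00138. Insig1, a sterol sensor, did not pass in KO (1526, 1371 and 1369 in sham, 1283, 1359 and 1290 under paraquat) and rose in wt by log2 0.60 (difference -0.72 ± 0.17, adjusted p = 0.0425), a call lost without 11 of the 12 arrays. In the cholesterol list 12 of 21 rose in wt against 4 in KO. There 4 differences were negative and passed (19.0% called against 2.29% of all genes), and 16 genes were called higher in KO sham than in wt sham. The count of 4 negative differences fell to 0 or 1 without any 1 of 10 arrays, was 2 without wt paraquat 3 and 9 without wt sham 1. Clca3a2, a calcium-activated chloride channel regulator, had the largest negative difference among the genes named by size, with 273, 136 and 137 and 15, 18 and 18 in KO and 55, 27 and 28 and 23, 25 and 15 in wt (-2.59 ± 0.43, adjusted p = 0.00743). Clca3a2 was dim in every group but KO sham, so the size of this difference is uncertain. 

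The p53 and NRF2 lists had like medians in the genotypes, while single members differed. The median change of p53 genes was 0.69 in KO and 0.70 in wt, with a median difference of 0.048, and 4 positive and 1 negative differences passed (14.3% of 35 genes against 2.29% of all genes), the 4 being 1 or 2 without any 1 of the other arrays than wt sham 1. Among 22 NRF2 targets the medians were 0.52 and 0.49, and 2 differences were positive and 0 negative (9.09%). The positive ones were Sesn2 (1.19), Zmat3 (0.58), Bbc3 (0.53) and Trp53inp1 (0.52) among p53 genes and Slc7a11 (1.73) and Abcc4 (0.78) among NRF2 targets, and Cd80 (-1.12) was negative. Sesn2, Slc7a11, Abcc4 and Cd80 kept the call without any 1 array, while Trp53inp1 lost it without 11 arrays, Zmat3 without 10 and Bbc3 without 7. Mdm2 differed by -0.023 ± 0.13, Txnrd1 by -0.12 ± 0.14 and Hmox1 by -0.31 ± 0.24, none of which passed. With 3 arrays in a group these standard errors leave room for differences of modest size, so a missed threshold does not show that the genotypes responded alike.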

How the data were processed

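RNA of 12 keratinocyte cultures was labelled with biotin and read on Affymetrix arrays. Per the submitters' processing notes the authors made the deposited intensity values with RMA in Affymetrix Expression Console 1.3.1.187; the sources used here give no build or filter. The deposited intensities were whole numbers from 3 to 17695, read as a linear scale from their range, and log2 was taken of them here. Rounding to whole numbers limits the precision of dim genes, and the number of arrays limits that of all.

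Of 41345 probe sets 23521 had 1 gene symbol in the platform annotation, 1814 several and 16010 none. Those with 1 symbol gave 22180 genes, the probe set of highest mean being used for the 1082 genes with several, and 23328 of the 23521 had a gene identifier in RefSeq. No gene was left out as dim. Limma 3.58.1 in R 4.3.3 fitted 4 group means to the 12 arrays, without a replicate block, and tested the KO response, the wt response, their difference and KO against wt, with Benjamini-Hochberg adjustment over 22180 genes and a threshold of 0.05. The fit was tested on simulated data.

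The genes and the 62 gene lists (1325 of 1438 entries measured) were chosen with earlier results of these data known. Genes were named by size of change or difference, without predicted, clone-named and small RNA genes. The 15 rises and 15 falls had to be called in KO, with arrays that did not overlap between treatments. The 10 differences in each direction had to pass the test. From each list genes were named by the smallest p (up to 6), by their place among the first 4 and, in lists of up to 12 measured genes, in full. Chosen after their values were seen were Abcc1, Abcc4, Aen, Apaf1, Asah1, Bbc3, Camp, Casp6, Ccl2, Cd80, Defb1, Degs1, Fas, Gapdh, Gsdmc, Gtse1, Kif18b, Lce1f, Lce1k, Lce6a, Lcn2, Nfkbia, Padi4, Pidd1, Pmaip1, Pttg1, Spc25, Sptlc3, Tnfaip3, Tnfrsf10b, Zmat3 and Ugdh, and, for their promoters, Chaf1b and Sprr2e. The promoters shown are those of smallest p in their list with 1 entry and a match before the start site. Alternatives covered normalization, an offset of 16, a filter on dim genes, probe set choice, the variance model, array weights, the arrays in the fit, a 1.5-fold threshold, the replicate block and leaving out arrays.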

Additional observations from a re-analysis of the deposited data

Results flagged for a closer look

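Genes of the text whose responses passed the test of the difference between genotypes (KO change minus wt change, log2, limma, adjusted p under 0.05, 3 arrays a group) are listed here. Among mitosis, replication and repair genes it was negative in Knl1 (-1.56), Depdc1a (-2.00), Bub1b (-1.56), Kif18a (-1.05), Ncapg2 (-0.97), Kif18b (-1.07), Gtse1 (-0.75), Mcm7 (-0.80) and Clspn (-0.90). Among epidermal envelope, protease inhibitor and surface genes it was negative in Lce3a (-1.38), Lce1a1 (-1.07), Lce1k (-1.48), Lce1f (-1.10), Lce6a (-1.41), Csta3 (-2.47), Stfa3 (-2.51), Stfa1 (-1.53), Psca (-1.78), Clca3a2 (-2.59) and Skint1 (-1.21). Among cytokine, immune marker and chemokine genes it was positive in Cxcl12 (0.95). Among cytokine, immune marker and chemokine genes it was negative in Cxcl3 (-2.19), Cxcl5 (-0.83), Cxcl1 (-0.60), Il24 (-1.76), Il1f9 (-1.14) and Cd68 (-0.59). Among p53 and NRF2 genes it was positive in Sesn2 (1.19), Zmat3 (0.58), Bbc3 (0.53), Trp53inp1 (0.52), Slc7a11 (1.73) and Abcc4 (0.78). Among p53 and NRF2 genes it was negative in Cd80 (-1.12). Among amino acid, tRNA synthetase and ATF4 genes it was positive in Slc7a3 (3.27), Trib3 (2.40), Niban1 (3.07), Atf5 (1.65), Aldh18a1 (1.55), Shmt2 (0.76), Psat1 (0.85) and Eprs (0.65). Among the remaining genes it was positive in Acot2 (3.37), Acta2 (1.10), Fn1 (1.43), Mmp13 (1.79), Sptlc3 (1.15) and Sqstm1 (1.09). Among the remaining genes it was negative in Gsta4 (-1.15), Insig1 (-0.72), Lpin2 (-0.94), Lrat (-1.02) and Tfrc (-1.43). Of these 53 differences 31 kept their call whichever 1 of the 12 arrays was left out. Groups of 3 arrays were too small for a search for single outlying samples.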

How the results depend on the processing

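The KO paraquat response kept its size, 5439 to 6362 calls against 6017, under a second normalization, median centring, an offset of 16, the dim filter, averaging over probe sets, a variance trend, array weights, the KO arrays alone and the removal of wt sham 2 and KO paraquat 3, and 4988 to 6216 when 1 array was left out. A test against a 1.5-fold change gave 895 calls, 524 higher and 371 lower. Counts and medians of the gene lists were less steady. Of these list results 40 moved and 146 stayed under median centring. A second normalization moved 30 (156 stayed), the dim filter 33 (153 stayed), and leaving out 1 KO array 24 to 33. A count moved if it changed by over 1.5-fold, a median if it changed by at least the SD of the list's level within KO groups. The difference of responses (508 calls, 309 higher, 199 lower) moved more than the KO response. It gave 882 calls (535 higher, 347 lower) with the offset of 16, 894 (540 and 354) without dim genes, 783 (468 and 315) with a variance trend, and 268 (174 and 94) without wt sham 2 and KO paraquat 3. Leaving out 1 array gave 250 to 700 differences in all, 187 to 386 higher and 63 to 314 lower. The cause was not tested. Same-numbered KO arrays correlated by 0.032, 0.0413 and 0.0902 in their deviations from the group means, and differently numbered ones by -0.060 to 0.028. In wt same-numbered arrays gave 0.032, -0.038 and -0.041, and differently numbered ones -0.034 to 0.065. These values do not settle whether the numbers pair samples. The labels do not tie an array to an animal, so the numbers were not taken to pair samples. With the replicate block the calls were 5805 in the KO paraquat response, 6250 in the wt paraquat response and 439 for the difference of responses. No result changed sign past the threshold under any alternative. Median centring shifted the level of any single array, KO or wt, by at most 0.0416 log2. Dim genes are limited by background that was not measured and by rounding to whole signals.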
